A study of Rattus norvegicus with 4 samples.

Results

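The miR-15, miR-16, miR-195 and miR-497 family is a set of microRNAs (miRNAs) that share the seed, the short stretch near the 5′ end that pairs with target mRNAs. Its members on the array were every spot named rno-miR-15a, rno-miR-15b, rno-miR-16, rno-miR-195 or rno-miR-497, alone or with a copy number or an arm. This gave 10 of the 761 rat miRNA probes, the 5p and the 3p arm of each of 5 hairpins, with 1 spot each. Of these, 9 exceeded the detection limit in both samples of hepatocytes, of LSECs or of each, and were tested among 652 miRNAs.

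The study measured miRNAs in primary hepatocytes, the parenchymal cells of the liver, and in liver sinusoidal endothelial cells (LSECs), the fenestrated cells that line its capillaries. Both came from untreated male Sprague-Dawley rats aged 10 weeks, and no treatment or altered gene set the groups apart. There were 4 samples, 2 of hepatocytes and 2 of LSECs, each of Cy5-labelled total RNA on 1 single-colour Toray 3D-Gene array. The labels do not say whether replicates came from separate animals, so p-values measure only the spread between these samples, which may be technical.

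An miRNA hairpin is cut into a 5p and a 3p strand, and usually 1 of them is kept in the silencing complex. The 5p strands of the miR-15/16 family are known to repress G1-to-S regulators such as D-type cyclins, cyclin E1, CDK6 and CHEK1, and the survival factor BCL2, work done mostly in human and mouse cells. miR-16 is also abundant in red blood cells and is widely used as a reference miRNA, and miR-195 rises in the mouse heart after birth, when its muscle cells leave the cell cycle.

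The mature sequences below, from RefSeq on build GRCr8, show what the 5p members share and where they differ, with the seed (bases 2 to 8, counted from the 5′ end) in capitals. miR-15b-5p lies at chr2:155555197-155555218 and miR-16-5p at chr2:155555343-155555364, miR-497-5p at chr10:55450172-55450193 and miR-195-5p at chr10:55450509-55450529, all on the plus strand. RefSeq sequences matched 8 of the 10 members, and miR-15a is named only.
miR-15b-5p: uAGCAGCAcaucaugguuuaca
miR-16-5p: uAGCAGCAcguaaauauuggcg
miR-195-5p: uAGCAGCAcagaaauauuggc
miR-497-5p: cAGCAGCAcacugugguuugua

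The 4 sequences had the same seed, AGCAGCA, and differed outside it. Of the 685 probes on the array that matched a RefSeq sequence, 5 had this seed: these 4 and miR-322-5p. Past the seed, miR-16-5p and miR-195-5p were most alike, with 2 substitutions over 21 shared bases (G10A and U11G, miR-16-5p's base first) and a final base that miR-195-5p lacks. miR-15b-5p and miR-497-5p were the next closest pair, at an edit distance of 6, and the other pairs stood 8 to 11 edits apart. By position the members paired differently. The miR-15b and miR-16 hairpins both lie within Smc4, a gene for a condensin subunit, with 86 bases between miR-15b-3p and miR-16-5p, whereas miR-497 and miR-195 lie on chromosome 10 with 275 bases between miR-497-3p and miR-195-5p and no annotated gene spanning them.

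The arrays matched their labels for the defining miRNAs. All 5 hepatocyte markers, the liver-enriched miR-122 arms among them, were called higher in hepatocytes, and both arms of endothelial miR-126a were called higher in LSECs. Replicate arrays correlated at r = 0.994 for hepatocytes and 0.996 for LSECs over the 652 tested miRNAs. These are log2 values after normalization by quantiles, which gives all arrays the same distribution. The mean blank signal was 79.5 and 92.1 for hepatocytes, against 70.9 and 71.8 for LSECs, in units of raw intensity, and 563 to 680 miRNAs per array exceeded the blank mean plus 2 SD, the detection limit used here.

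All 5 of the 5p members were higher in LSECs, and no member was called higher in hepatocytes. The call required an adjusted p under 0.05 in limma, with Benjamini-Hochberg adjustment over all 652 miRNAs. The background was wide, since 37% of the tested miRNAs were called, 18.6% as higher in LSECs and 18.4% as higher in hepatocytes. Of the 9 members tested, 5 were called and 6 had an unadjusted p under 0.05, against 316 of all 652. Differences ranged from 0.34 to 1.60 log2 over the 5p members, with a median of 1.33, against a median of 0.00 for all tested miRNAs. 3 of them, miR-16-5p, miR-195-5p and miR-497-5p, were called at least 2-fold higher in LSECs, as were 7.06% of tested miRNAs.

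Levels are given first on the authors' deposited scale, which is linear: the spot median minus the array's mean blank signal, multiplied by a constant per array that sets the median listed miRNA to 25. Log2 means and differences come from a separate normalization of the spot medians, by quantiles after background correction with an offset of 50. That step forces the same distribution on all 4 arrays, and for the 5p members its folds were smaller than those of the authors' scale. The offset also shrinks the log2 differences of dim probes more than those of bright ones. Probes differ in brightness for reasons of their own, so each member is compared only with itself across arrays. Whether a probe also read a member of similar sequence was not tested, so the members may not be independent readings.

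**Figure D1:**
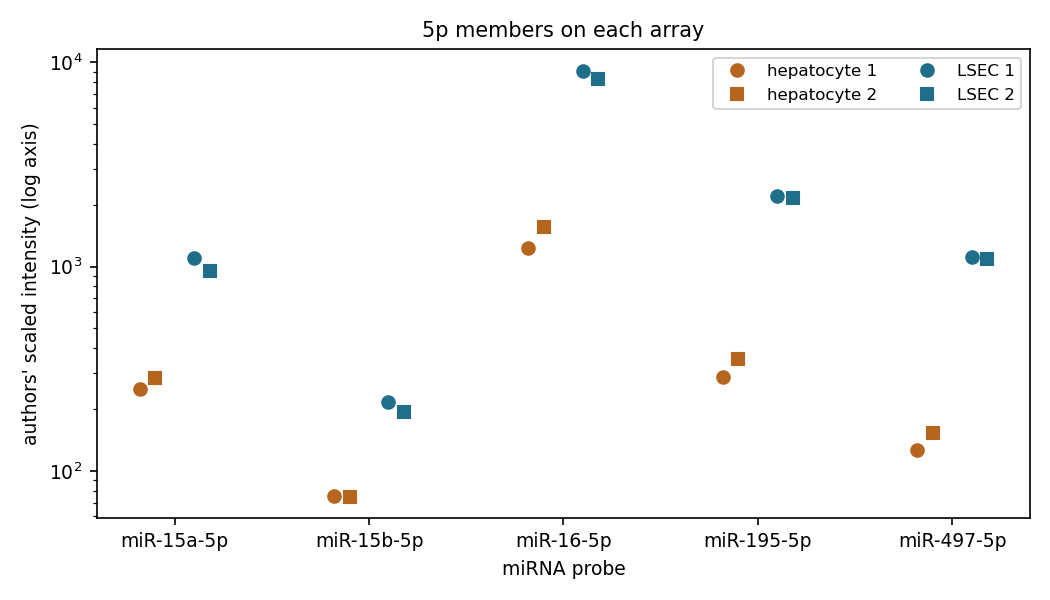
Level of each 5p member on each of the 4 arrays, on the authors' scaled intensity (vertical log axis), with circles for replicate 1 and squares for replicate 2. Both LSEC arrays (blue) lie above both hepatocyte arrays (brown) for every 5p member, from 1240 and 1558.6 against 9109.1 and 8253.6 for miR-16-5p to 75.7 and 75 against 218.8 and 195.4 for miR-15b-5p.

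miR-16-5p, the member most often studied as a brake on cyclin D1 and BCL2, read 1240 and 1558.6 scaled units in hepatocyte samples 1 and 2, against 9109.1 and 8253.6 in LSEC samples 1 and 2. Both LSEC arrays were above both hepatocyte arrays, and the ratio of the means on this scale was 6.20. After normalization its level was 10.58 ± 0.06 log2 in hepatocytes and 12.05 ± 0.02 in LSECs (SD, n = 2 each). The difference was 1.47 ± 0.05 log2 (SE), or 2.77-fold, with a limma adjusted p of 0.000155.

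miR-195-5p, known from mouse heart for repressing mitotic genes after birth, read 287.4 and 353.8 scaled units in the hepatocyte samples, against 2204.6 and 2169.4 in the LSEC samples. The cell types did not overlap, and the ratio of the means was 6.82. Its hepatocyte arrays were farther apart than its LSEC arrays, at 8.69 ± 0.22 against 10.02 ± 0.04 log2 after normalization (SD, n = 2 each). The difference was 1.33 ± 0.12 log2 (SE), or 2.51-fold (limma adjusted p = 0.00248).

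miR-497-5p, made from the same locus as miR-195-5p, read 126 and 153.5 scaled units in the hepatocyte samples, against 1109.2 and 1086.1 in the LSEC samples. Again both LSEC arrays stood above both hepatocyte arrays, by a ratio of means of 7.85. It had the largest normalized difference of the 5p members, 1.60 ± 0.05 log2 (SE) or 3.03-fold, from 7.50 ± 0.08 log2 in hepatocytes to 9.10 in LSECs (SD, n = 2; limma adjusted p = 0.000161). Its SD in LSECs is 0 because the probe held rank 58 on both LSEC arrays, and quantile normalization gives equal ranks equal values.

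miR-15a-5p, which in humans is encoded beside a miR-16 copy at a locus deleted in chronic lymphocytic leukaemia, read 251.8 and 286.7 scaled units in the hepatocyte samples, against 1101.1 and 949.9 in the LSEC samples. The groups did not overlap, at a ratio of means of 3.81. Normalized levels were 8.39 ± 0.09 log2 in hepatocytes and 8.98 ± 0.10 in LSECs (SD, n = 2 each). The difference was 0.60 ± 0.08 log2 (SE), or 1.51-fold (limma adjusted p = 0.00792).

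miR-15b-5p, the neighbour of miR-16 within Smc4, read 75.7 and 75 scaled units in the hepatocyte samples, against 218.8 and 195.4 in the LSEC samples. These did not overlap and had a ratio of means of 2.75. The normalized difference was the smallest of the 5p members, 0.34 ± 0.06 log2 (SE) or 1.26-fold, from 6.95 ± 0.10 to 7.29 ± 0.03 log2 (SD, n = 2 each; limma adjusted p = 0.0230).

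**Figure D2:**
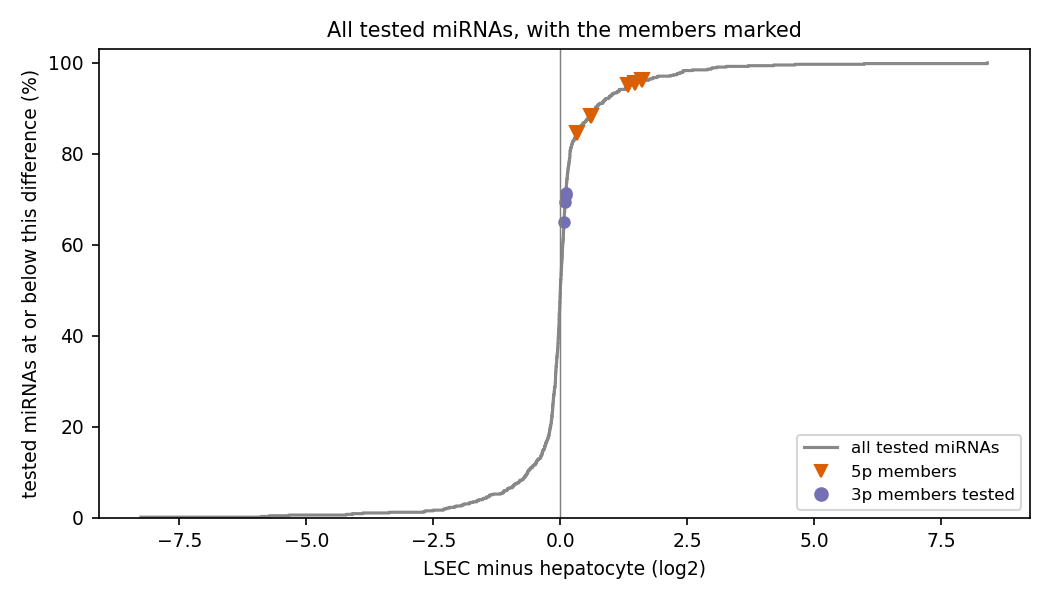
Cumulative percent of the 652 tested miRNAs (vertical axis) at or below each LSEC minus hepatocyte difference in log2 (horizontal axis), with the tested members marked. The 5p members (triangles) lie between 0.34 and 1.60, on the LSEC side, and the 3p members (circles) between 0.07 and 0.11.

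By rank from the largest LSEC excess among the 652 tested miRNAs, miR-497-5p stood at 26, miR-16-5p at 30, miR-195-5p at 32, miR-15a-5p at 77 and miR-15b-5p at 101. After normalization, hepatocyte and LSEC values were fully separate for each of the 5p members, as they were for 71.3% of all tested miRNAs. With 2 arrays against 2, an exact permutation test of 1 miRNA cannot give a two-sided p below 0.333, so the calls rest on limma's pooling of the spread across miRNAs.

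The size of the LSEC excess depended on the scaling, while its direction for the 5p members did so in 1 setting. On the authors' values the differences were 1.93 log2 for miR-15a-5p, 1.46 for miR-15b-5p, 2.64 for miR-16-5p, 2.78 for miR-195-5p and 2.98 for miR-497-5p, where the median of all miRNAs was itself at 0.28. Scaling by the spike control spots gave 1.58 to 3.82 with a median of all miRNAs at 0.27. Scaling by the 75th percentile gave 0.52 to 2.15 with that median at -0.15. Cyclic loess gave 0.24 to 1.37, and there miR-15b-5p was not called (0.24, limma adjusted p = 0.0974). Subtracting the deposited background column left 1 member called, miR-497-5p at 2.51, and put miR-15b-5p at -0.28 (limma adjusted p = 0.612).

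**Figure D3:**
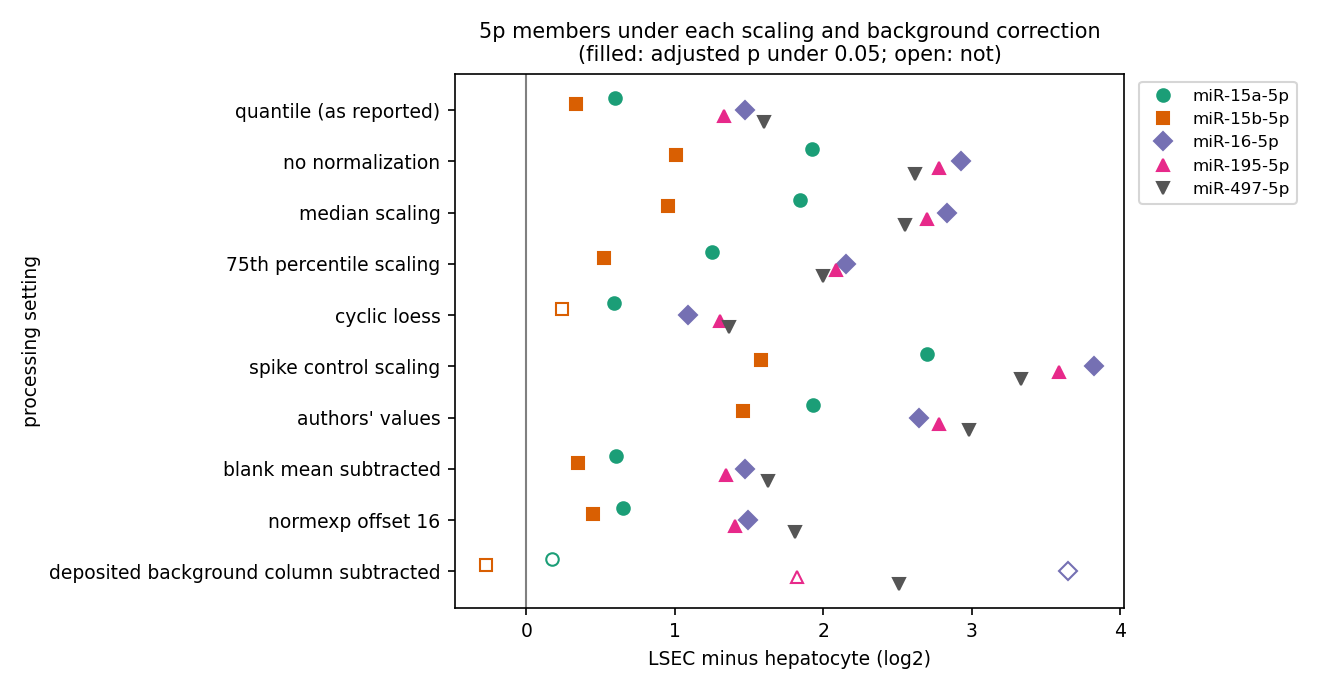
LSEC minus hepatocyte difference in log2 (horizontal axis) for the 5 5p members, 1 marker each, under each background correction and scaling (vertical axis). Filled markers were called in limma at an adjusted p under 0.05. miR-15b-5p and miR-15a-5p lie left of the other 3 members in every setting drawn, and miR-15b-5p falls below 0 with the deposited background column.

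Single arrays also decided some calls. Without LSEC replicate 1 or without LSEC replicate 2, miR-16-5p and miR-497-5p were the 2 members called, while miR-195-5p had 1.31 and 1.28 log2 (limma adjusted p = 0.0641 and 0.0561), miR-15a-5p 0.50 and 0.61 (0.0738 and 0.0767) and miR-15b-5p 0.27 and 0.35 (0.176 and 0.173). These fits keep 1 LSEC array, assumed to vary like the hepatocyte arrays, and called 8.44% and 8.67% of miRNAs as higher in LSECs. Without hepatocyte replicate 1, miR-15a-5p had 0.54 log2 (limma adjusted p = 0.0589).

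The excess was unequal within the family. In each array the log2 level of 1 member was subtracted from that of another, so that what is fixed to a probe cancels between arrays, and the change of this difference between cell types was tested for all 10 pairs of 5p members in 1 limma fit with the arm differences of 213 hairpins. In that fit 54.7% of the 223 differences were called. The called member pairs were the 6 that set miR-15a-5p or miR-15b-5p against miR-16-5p, miR-195-5p or miR-497-5p.

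miR-15b-5p minus miR-497-5p had the largest change, -0.42 and -0.67 log2 in the hepatocyte samples, against -1.78 and -1.83 in the LSEC samples. The LSEC excess of miR-15b-5p was therefore 1.26 ± 0.11 log2 (SE) smaller than that of miR-497-5p (limma adjusted p = 0.000251). Against its Smc4 neighbour, miR-15b-5p minus miR-16-5p read -3.51 and -3.74 log2 in the hepatocyte samples, against -4.75 and -4.77 in the LSEC samples, a change of -1.13 ± 0.10 (SE; limma adjusted p = 0.000305). The mature strands of these neighbours thus differed in their LSEC excess by more than the spread between arrays. A probe reads the mature strand from any locus, and whether a miR-16 copy elsewhere added to miR-16-5p was not tested.

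For miR-15a-5p the changes were -0.88 ± 0.08 against miR-16-5p, -0.73 ± 0.10 against miR-195-5p and -1.00 ± 0.09 against miR-497-5p (log2 ± SE; limma adjusted p from 0.000251 to 0.00141). miR-15b-5p minus miR-195-5p changed by -0.99 ± 0.15 (limma adjusted p = 0.00275). Of 14 alternatives, 5 of them scalings added after seeing the data, all 6 pairs were called with the same sign in at least 13, and the exception was the deposited background column, which left miR-15b-5p minus miR-497-5p as the 1 pair called.

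The other 4 pairs did not pass. miR-15a-5p exceeded miR-15b-5p by 0.26 log2 in LSEC excess, with a 95% confidence interval of -0.03 to 0.55 (limma adjusted p = 0.115). It was called in 6 of the 14 alternatives, which were the 5 other scalings, with values up to 1.12, and the fit without hepatocyte replicate 2 (0.44). miR-16-5p minus miR-195-5p, the pair closest in sequence, gave 0.14 (-0.11 to 0.39, limma adjusted p = 0.288), and its sign turned on the authors' values (-0.14). For miR-16-5p minus miR-497-5p the value was -0.13 (-0.32 to 0.06, limma adjusted p = 0.203), and median scaling and spike scaling called it with the opposite sign, at 0.28 and 0.49, while leaving out hepatocyte replicate 2 called it at -0.29. The chromosome 10 neighbours, miR-195-5p minus miR-497-5p, gave -0.27 (-0.51 to -0.03, limma adjusted p = 0.0607), and spike scaling called it with the opposite sign, at 0.25, while leaving out hepatocyte replicate 1 or 2 called it at -0.42 or -0.24, and a normexp offset of 16 at -0.40. These p-values do not show that the members moved alike.

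**Figure D4:**
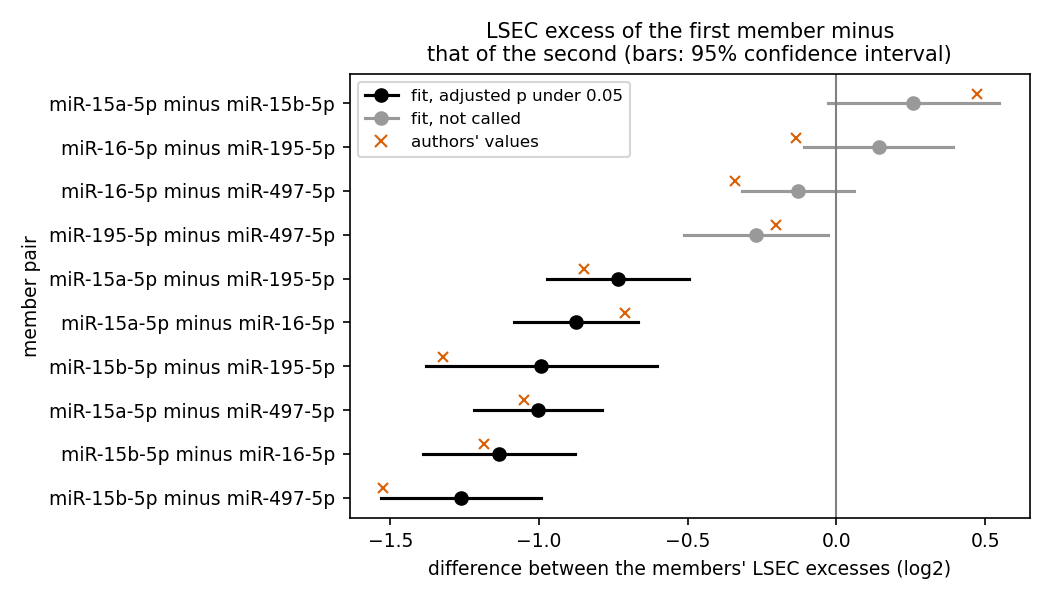
Change between cell types of the within-array difference of each of the 10 pairs of 5p members in log2 (horizontal axis), with 95% confidence intervals and the same quantity on the authors' values (crosses). The 6 pairs of miR-15a-5p or miR-15b-5p with miR-16-5p, miR-195-5p or miR-497-5p (black) lie between -1.26 and -0.73, and the 4 others (grey) between -0.27 and 0.26.

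Whether sequence or position goes with the LSEC excess was not tested. miR-15b-5p was called as unequal both to miR-497-5p, nearest to it in sequence, and to miR-16-5p, nearest to it on the genome. The pair closest in sequence, miR-16-5p and miR-195-5p, and the neighbours miR-195-5p and miR-497-5p were not called. An uncalled pair is not shown to be equal, and the interval of miR-195-5p minus miR-497-5p lay below 0 (-0.51 to -0.03). miR-15a-5p, with no sequence or position here, is left out of this comparison.

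The 3p strands, which are usually degraded, were at or near the blanks on the hepatocyte arrays and mostly above the detection limit on the LSEC arrays. Their hairpins are shown with both arms in capitals, as RefSeq gives them for GRCr8, for the 3 members whose hairpins the table holds: Mir16 at chr2:155555327-155555421, Mir497 at chr10:55450171-55450239 and Mir195 at chr10:55450495-55450581, all on the plus strand. The 5p arm is the run of capitals nearer the 5′ end.
Mir16: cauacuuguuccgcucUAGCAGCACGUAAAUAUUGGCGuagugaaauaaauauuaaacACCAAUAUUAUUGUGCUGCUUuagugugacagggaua
Mir497: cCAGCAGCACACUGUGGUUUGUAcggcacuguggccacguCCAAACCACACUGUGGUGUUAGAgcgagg
Mir195: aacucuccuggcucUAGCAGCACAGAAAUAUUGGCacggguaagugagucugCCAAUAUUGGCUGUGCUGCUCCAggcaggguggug

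On the hepatocyte arrays, 5 and 6 of the 10 members were detected, and on the LSEC arrays 10 and 9. Detection was also more frequent in LSECs over all 761 miRNA probes, at 680 and 660 against 563 and 596 in hepatocytes. The members detected in hepatocytes were the 5p arms on both arrays, plus miR-15a-3p on array 2. On both LSEC arrays all members except miR-497-3p were detected, and miR-497-3p passed on LSEC array 1 alone. With the limit raised to 5 SD above the blank mean, 8 members were still detected on both LSEC arrays and the 5p arms on both hepatocyte arrays.

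miR-15a-3p, the 1 3p arm detected on a hepatocyte array, stood at 1.97 and 3.67 blank SD above their mean in the hepatocyte samples, against 9.37 and 12.7 in the LSEC samples. miR-16-3p stood at 1.27 and 1.05 blank SD in the hepatocyte samples, against 6.33 and 5.86 in the LSEC samples. The corresponding values were 1.54, 1.82, 6.39 and 5.36 for miR-15b-3p, 1.75, 0.92, 7.23 and 4.81 for miR-195-3p, and 0.87, 0.82, 4.22 and 1.70 for miR-497-3p. All 3p arms but miR-497-3p thus had both LSEC arrays above both hepatocyte arrays in these units. Blank spots themselves varied less on the LSEC arrays, with an SD of 1.15 and 1.24 against 1.71 and 2.63 in hepatocytes. For the median miRNA probe, the signal above the blank mean was 6.70 and 11.9 raw units in hepatocytes, against 12.7 and 12.9 in LSECs. In blank SD the median probe was thus also higher on both LSEC arrays, and the share of all miRNAs separated in these units was not counted.

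None of the 4 tested 3p arms was called. The differences were 0.11 log2 for miR-15a-3p (limma adjusted p = 0.189), 0.07 for miR-15b-3p (0.201), 0.11 for miR-16-3p (0.103) and 0.10 for miR-195-3p (0.172), each toward LSECs. Spike scaling called all 4, at 0.18 to 0.32 log2, where 66.4% of all tested miRNAs were called higher in LSECs. The median of all tested miRNAs was 0.27 there. All 4 turned toward hepatocytes under 75th-percentile scaling, from -0.12 to -0.08 log2, where that median was -0.15. These 4 entered the test through their detection on both LSEC arrays. No hepatocyte array detected miR-15b-3p, miR-16-3p or miR-195-3p, so no fold is given for them, and their measured means were 5.89, 5.86 and 5.87 log2 in hepatocytes and 5.96, 5.97 and 5.97 in LSECs. At this signal a difference smaller than the blank spread could not be detected.

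Within an array the 5p arm gained on the 3p arm in LSECs in all 4 hairpins with both arms tested, as a change of the 5p minus 3p log2 difference. This change was 1.37 ± 0.08 for miR-16, 1.23 ± 0.13 for miR-195, 0.49 ± 0.10 for miR-15a and 0.26 ± 0.09 for miR-15b (SE; limma adjusted p = 5.54e-05, 0.000651, 0.00801 and 0.0461). The call for miR-15b was lost without hepatocyte replicate 2 (0.21), without LSEC replicate 1 (0.21) and without LSEC replicate 2 (0.27), and that for miR-15a without hepatocyte replicate 1 (0.47) and without LSEC replicate 1 (0.37). Among all 213 hairpins 54.5% were called. In these 4 the 3p arm was at or near the blanks in hepatocytes, so the change is no measure of strand choice.

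Beyond the members, miR-322-5p and miR-503-5p of the X chromosome were the other miRNAs on the array with the same bases 2 to 8, or 2 to 7, as miR-16-5p. They are neighbours on the minus strand and are described as part of the wider seed group, with cell cycle regulators among their targets. Both sequences are from RefSeq on GRCr8, at chrX:137726198-137726219 and chrX:137725899-137725921, with bases 2 to 8 in capitals.
miR-322-5p: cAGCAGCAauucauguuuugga
miR-503-5p: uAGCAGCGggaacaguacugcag

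miR-322-5p was not listed on hepatocyte array 1, read 17.9 scaled units on hepatocyte array 2, and 1521.5 and 1052.1 on the LSEC arrays. It entered the test through its detection on both LSEC arrays. Its normalized hepatocyte mean, 5.96 log2, was that of miR-15a-3p (5.96), at or near the blanks, so the size of its difference is limited by the blanks. The difference of miR-322-5p, 3.27 ± 0.15 log2 (SE; limma adjusted p = 0.000341), was larger than that of any member with the same seed. How far it differed from them was not tested. miR-503-5p, which differs from them at the last seed base, read 73.1 and 109.5 scaled units in the hepatocyte samples, against 93.5 and 76 in the LSEC samples, so its cell types overlapped on this scale. Normalized by quantiles it was lower in LSECs, with a difference of -0.48 ± 0.10 log2 (SE; limma adjusted p = 0.0281). That call was lost on the authors' values (-0.09, limma adjusted p = 0.789), and spike scaling called the opposite direction, at 0.60. It was also lost without hepatocyte replicate 2 (-0.39), LSEC replicate 1 (-0.48) or LSEC replicate 2 (-0.38).

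The miRNAs whose pattern over the 4 arrays was most like each 5p member were sought among 477 others detected on all arrays, by the root mean square difference of centred log2 values. miR-181a-5p was nearest to miR-16-5p (0.060 log2) and to miR-497-5p (0.028). miR-362-3p followed for miR-16-5p (0.083) and miR-199a-5p for miR-497-5p (0.13). miR-494-3p (0.073) and miR-362-3p (0.11) were nearest to miR-195-5p. For miR-15a-5p they were miR-30d-5p (0.045) and miR-30a-5p (0.063), and for miR-15b-5p miR-3065-3p (0.026) and miR-770-3p (0.032). Within the family the closest patterns were those of miR-16-5p and miR-497-5p (0.066) and the most distant those of miR-15b-5p and miR-497-5p (0.64). With 4 arrays in 2 cell types, these distances mostly rank the size of the LSEC excess.

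Other miRNAs known to repress G1-to-S regulators (a list from let-7, miR-98, miR-34, miR-449 and miR-26) were in part higher in LSECs too. Of 14 tested, 7 were called higher in LSECs and 1 higher in hepatocytes, against 18.6% and 18.4% of all tested miRNAs, with a median of 0.20 log2. The largest differences were those of let-7i-5p (1.81 ± 0.24), let-7c-5p (0.76 ± 0.06), let-7a-5p (0.74 ± 0.14) and let-7d-5p (0.70 ± 0.10, all log2 ± SE), members of the let-7 family known to repress RAS and cyclin D genes. The count for LSECs fell to 3 under cyclic loess, where let-7a-5p turned to -0.12, and to 1 when hepatocyte replicate 1 or 2 was left out, where let-7i-5p kept 1.84 and 1.93 log2 (limma adjusted p = 0.0818 and 0.0763). On the list, miR-26b-5p was the 1 called higher in hepatocytes (-0.54 ± 0.07, named after its value was seen), but it was called higher in LSECs on the authors' values (0.60) and under median (0.84), spike (1.83) and no scaling (0.94), and was not called when LSEC replicate 1 or 2 was left out (-0.56 and -0.64). let-7g-5p, a let-7 member that the list does not hold, named after its value was seen, was also called higher in hepatocytes (-0.73 ± 0.05 log2, SE; limma adjusted p = 0.00121), and it was called higher in LSECs on the authors' values (0.64) and under 75th-percentile (0.20), median (0.86), spike (1.82) and no scaling (0.95).

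miR-16 often serves as a reference for other miRNAs. Of 7 further reference miRNAs on the array, such as miR-103-3p, miR-93-5p and let-7a-5p, 4 were called higher in LSECs and none in hepatocytes, against 18.6% and 18.4% of all tested miRNAs, with differences from -0.03 to 0.74 log2. The count for LSECs was 7 under median and spike scaling, which called 33.9% and 66.4% of all miRNAs higher in LSECs, 2 under cyclic loess (15.8%), and 1 or 2 when any single array was left out. miR-16-5p, at 1.47, lay outside that range.

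Markers of leukocytes and Kupffer cells, and of stellate and mesenchymal cells, were higher in LSECs, as the 5p members were. All 5 leukocyte and Kupffer cell miRNAs were called higher in LSECs, against 18.6% of all tested miRNAs. The summed scaled level of these 5 was 81.8 to 106.7 on the hepatocyte arrays and 2362.8 to 2949.8 on the LSEC arrays. All 5 stellate and mesenchymal miRNAs were called higher too, with sums of 106.1 to 131.2 and 1965.6 to 2506.6. miR-155-5p and miR-199a-3p were listed on neither hepatocyte array. Fewer were called when single arrays were left out: of the leukocyte miRNAs 2 and 1 without hepatocyte replicates 1 and 2 and 3 without LSEC replicate 1 or 2, and of the stellate miRNAs 3 without hepatocyte replicate 1 or 2. Their part in the members' LSEC excess was not tested, and in RNA from a cell preparation more cells of a type and more RNA per cell cannot be told apart.

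Red cells are rich in miR-16, and 2 of the 4 red cell miRNAs on the array could be tested. None was called higher in LSECs and 1 was called higher in hepatocytes, against 18.6% and 18.4% of all tested miRNAs. Whether red cells added to the members' levels was not tested. The 4 on the array summed to 126.1 to 153.6 scaled units in hepatocytes and 120.8 to 123.7 in LSECs. miR-451-5p, the defining red cell miRNA, read 96.9 and 65.1 in the hepatocyte samples, against 36.6 and 24.9 in the LSEC samples, a difference of -0.82 ± 0.16 log2 (SE; limma adjusted p = 0.0259), which was not called without LSEC replicate 1 (-0.78) or 2 (-0.69), with no normalization (-0.39) or under spike scaling (-0.022), and turned with the deposited background column (0.046). miR-486 read 56.7 and 49.6 against 82.7 and 95.9 and gave -0.01 ± 0.08 log2 (SE; limma adjusted p = 0.935). It was the 1 red cell miRNA called higher in LSECs on the authors' values and under median and spike scaling. These settings called 40.7%, 33.9% and 66.4% of all tested miRNAs higher in LSECs. miR-144-5p was listed on no array, and miR-144-3p was too rarely detected to be tested.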

How the data were processed

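miRNAs were measured on 4 single-colour arrays. The deposited scanner output holds the median intensity of every spot, which per the file headers merges 3 scan gains and still includes background. The authors also deposited processed intensity values without a stated scale. They equalled the spot median minus the trimmed blank mean, times a constant per array (CV of the ratio 0.152 to 0.291%), and so are linear and not centred across arrays. miRNAs not listed there have no value. Image analysis settings are not given in the sources used here.

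Spot medians were corrected by normexp on all spots (offset 50), quantile-normalized over the 761 miRNA probes and taken to log2. A miRNA was detected above the blank mean plus 2 SD, with 5% of blanks trimmed at each end. LSEC minus hepatocyte was fitted by lmFit and eBayes (R 4.3.3, limma 3.58.1) for miRNAs detected in both samples of a cell type, with Benjamini-Hochberg adjustment and a threshold of 0.05. Within-array differences of member pairs and hairpin arms had a fit of their own. The code was tested on simulated data.

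Named were all members, miRNAs with the seed or bases 2 to 7 of miR-16-5p, the 2 most similar miRNAs per 5p member, and up to 4 leading miRNAs of the G1-to-S list; others are said to have been named after their values were seen. Members, lists and markers were chosen with earlier results of these data known. Probe names are those of the array's design, and 685 of 761 probes matched a RefSeq sequence. The number of arrays limits the precision. Alternatives changed the background correction, scaling, detection filter, limma options, replicate block and single arrays.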

Additional observations from a re-analysis of the deposited data

How the results depend on the processing

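Of 15 alternatives that kept all 4 arrays, the 5p members' LSEC excess changed its call or direction in cyclic loess (miR-15b-5p 0.24) and with the deposited background column (miR-15a-5p 0.17, miR-15b-5p -0.28, miR-16-5p 3.65, miR-195-5p 1.82, 1 member called). That column also left 1 member pair called and turned miR-15a-3p (-0.012), miR-15b-3p (-0.12), miR-195-3p (-0.032), miR-15b 5p minus 3p (-0.16), miR-16-5p minus miR-497-5p (1.14), let-7i-5p (-0.034), miR-26b-5p (1.15) and miR-451-5p (0.046). It called 10 miRNAs in each direction overall. Spike scaling called 9 members, against 66.4% of all tested miRNAs called higher in LSECs, and 10 pairs, with no share over all differences counted. It turned miR-16-5p minus miR-497-5p (0.49), miR-195-5p minus miR-497-5p (0.25), miR-26b-5p (1.83) and miR-503-5p (0.60).

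Median scaling turned these 4 as well (0.28, 0.15, 0.84 and 0.051) and miR-15b-3p (-0.00019), and no normalization turned the same 4 (0.31, 0.16, 0.94 and 0.080). The 75th percentile turned miR-15a-3p (-0.083), miR-15b-3p (-0.12), miR-16-3p (-0.087), miR-195-3p (-0.10), miR-16-5p minus miR-497-5p (0.16), miR-195-5p minus miR-497-5p (0.085) and miR-26b-5p (0.16). The authors' values turned miR-16-5p minus miR-195-5p (-0.14) and miR-26b-5p (0.60), and cyclic loess miR-16-5p minus miR-195-5p (-0.22) and let-7a-5p (-0.12). Of all calls, 50.2% were higher in LSECs with quantiles (121 and 120), 84.7% with no normalization (150 and 27), 67.2% by the median (221 and 108), 30.8% by the 75th percentile (137 and 308), 95.4% by spikes (433 and 21) and 63.8% on the authors' values (196 and 111, of 482 tested). The cause of these shifts was not tested.

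Leaving out single arrays gave 2 to 5 members called, 0.50 to 0.71 log2 for miR-15a-5p, 0.27 to 0.44 for miR-15b-5p and 1.19 to 1.51 for miR-195-5p, and -0.051 to 0.28 for miR-16-5p minus miR-195-5p and -0.29 to 0.077 for miR-16-5p minus miR-497-5p. Without LSEC replicate 1 or 2, 57 and 60 miRNAs were called higher in LSECs and 52 and 56 higher in hepatocytes. For hepatocyte and LSEC samples with the same number, the labels give only the number and no shared animal or run. The deviations of the replicate 1 samples from their group means correlated at r = 0.034 over the tested miRNAs. With 2 pairs this cannot decide whether samples were paired. With a replicate block, 5 members and 6 member pairs were called, and 99 miRNAs in each direction. The block ended the calls of miR-503-5p (limma adjusted p = 0.0537) and of miR-15b 5p minus 3p (limma adjusted p = 0.0755). miR-486 (-0.01) turned to 0.75 on the authors' values, 0.39 by the median, 0.89 by spikes, 0.44 with no normalization and 0.051 by the 75th percentile, and ranged from -0.11 to 0.090 over single arrays left out. let-7g-5p (-0.73) turned to 0.64 on the authors' values, 0.86 by the median, 1.82 by spikes, 0.95 with no normalization and 0.20 by the 75th percentile. The 3p arms are limited by signal over background.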
